A study of Mus musculus with 6 samples.

Results

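The TRIM (tripartite motif) genes were followed in type 2 conventional dendritic cells (cDC2s) of mouse spleen that lacked or carried the transcription factor IRF4. Members were the rows of the count table whose symbol begins with Trim and a number and whose counts summed to at least 10 over the 6 libraries, which gave 48 of 14535 rows. Trim66 was the member just inside this limit, with 22 counts, and Trim69, with 9 counts, lay just outside it. Of the 48, 43 passed the filter on low counts and were tested.

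The IRF4-deficient group held 3 libraries of cDC2s from mice of the genotype CD11c-Cre Irf4fl/fl. The CD11c promoter drives Cre in all cells that express CD11c, other dendritic cells and some macrophages among them, and Cre removes the floxed part of Irf4 there. The WT group held 3 libraries of cDC2s from wild-type mice. All animals were C57BL/6, and no age, treatment or sort gate is given in the sources used here. No group carried Cre without the floxed alleles, so Cre itself and the loss of Irf4 cannot be told apart. The labels do not say that replicates were separate animals, and the spread behind each p-value is that between libraries, which may be technical.

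Library totals were 7949462 to 10609420 counts in the IRF4-deficient group and 7421605 to 11459920 in the WT group. Irf4 checks the labels: it stood at 90.8, 65.3 and 84.0 CPM in the IRF4-deficient libraries, against 291.8, 295.8 and 345.0 CPM in WT (log2 fold change -1.95, SE 0.12, edgeR adjusted p = 1.45e-09). CPM values here are counts over the TMM-scaled library totals. The cDC2 markers Itgax, Sirpa, Itgam, Flt3, Zbtb46, Cd4, Cd209a and Clec4a4 were present in every library and summed to 4988 to 5403 CPM in IRF4-deficient libraries, against 4345 to 4452 CPM in WT, with Itgam and Itgax called higher and Cd4, Cd209a, Flt3 and Zbtb46 lower. All 12 red pulp macrophage markers were also detected, and they summed to 1829 to 3346 CPM in IRF4-deficient against 1014 to 1341 CPM in WT libraries, with 7 of the 12 called higher. The 5 cDC1 markers summed to 168.4 to 244.7 CPM in IRF4-deficient libraries, against 118.5 to 131.4 CPM in WT, with 4 called higher. The sums were 44.0 to 90.1 CPM in IRF4-deficient libraries, against 48.6 to 98.5 CPM in WT, for B cell markers, of which Ms4a1 was called lower. For plasmacytoid dendritic cell markers they were 194.8 to 224.1 CPM in IRF4-deficient libraries, against 210.1 to 247.8 CPM in WT, with Siglech called higher and Ccr9 lower. Markers of neutrophils, NK cells, T cells and erythroid cells summed to at most 14.8 CPM in any library. Only 2 of 4 neutrophil, 2 of 4 erythroid and 3 of 4 T cell markers had a row, so these sums are incomplete. The part of other cell types in the results was not tested, except where stated for red pulp macrophages.

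Most TRIM proteins share a RING finger, B-boxes and a coiled coil, and act as E3 ubiquitin ligases that pass ubiquitin from a conjugating enzyme to a target chosen by the C-terminal domain. Many members with a B30.2 (SPRY) C-terminal domain are induced by interferons and act against viruses, as restriction factors or as regulators of the RIG-I, cGAS-STING and NF-κB pathways. Others serve in chromatin, the cytoskeleton, membrane traffic or autophagy. In dendritic cells the family is best known for setting the strength of innate sensing.

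TRIM genes were lower more often than higher in IRF4-deficient cDC2s. Of the 43 tested members, 11 were called lower and 1 higher by edgeR's quasi-likelihood test at an adjusted p under 0.05 (Benjamini-Hochberg over all genes), where 10.5% of the 11934 tested genes were called lower, 9.87% higher and 20.4% either way. That is 25.6% of the tested members called lower and 2.33% called higher. The median log2 fold change was -0.19 over the tested members and 0.00 over all tested genes, with 33 members below 0 and 10 above. Together the 48 members summed to 2355 ± 82.1 CPM in IRF4-deficient libraries, against 2665 ± 81.6 CPM in WT (SD, n = 3 each). Fewer cells of a type and less RNA per cell cannot be told apart in these bulk samples.

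**Figure D1:**
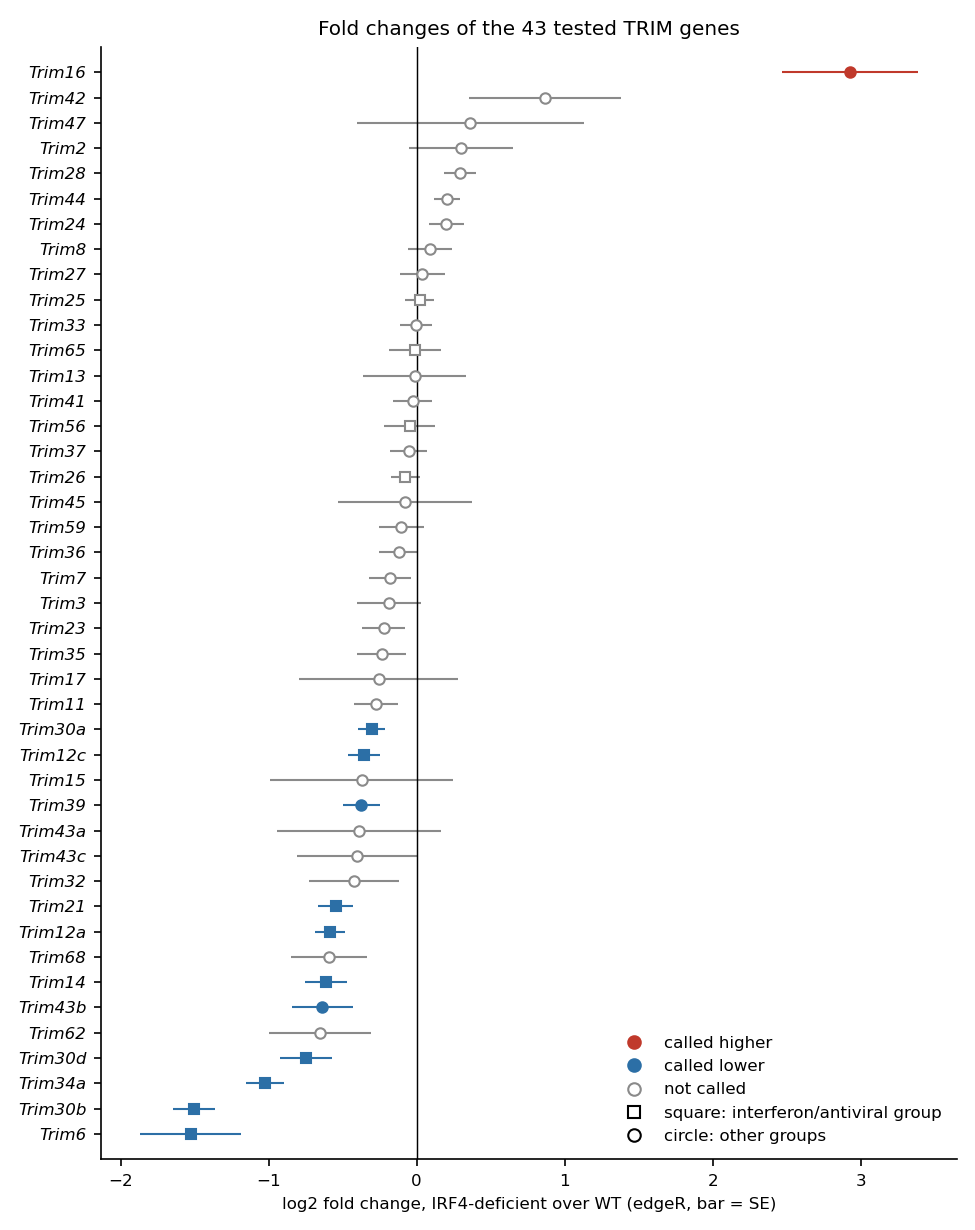
Log2 fold change (horizontal axis, IRF4-deficient over WT, bar = SE) of each of the 43 tested TRIM genes, ordered by size. Filled blue points were called lower (11 genes), the filled red point was called higher (Trim16), and open points were not called. Squares mark the interferon and antiviral group, which holds 9 of the 11 lower genes.

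By count, most lower calls were in genes commonly described as interferon-inducible or antiviral. Of the 13 tested genes in this group 9 fell and 0 rose, and their log2 fold changes ran from -1.53 to 0.02 around a median of -0.55. Of the other 30 tested members 2 fell and 1 rose, and their median was -0.11. The group was drawn up with results of these data already known, so its count describes these libraries and is not independent evidence.

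Of the 11 lower genes, 7 sit close together on chromosome 7. A cluster of 289.1 kb from Trim6 to Trim30d (GRCm38 chromosome 7, 104218793 to 104507849) contributed 8 rows to the table, all of them TRIM genes, and the 7 that could be tested were all called lower. Trim21, at 102557921 to 102565486 on the same chromosome, was the other chromosome 7 member called lower, so 8 of the 11 lower members lay there, where 11 members were tested. Over all 849 tested genes of chromosome 7, 8.24% were called lower and 11.3% higher. Within 2 Mb on either side of the cluster 13 genes other than TRIM genes were tested, of which 0 fell and 3 rose (Smpd1, Tpp1 and Gm4759), around a median log2 fold change of 0.20. With only 13 genes, these counts do not set the neighbours apart from the rest of the chromosome. The cluster was marked out after the values were seen. GENCODE annotates 18 genes in the cluster, 10 of them TRIM genes. Its members Trim5 and Trim30c had no row in the count table.

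**Figure D2:**
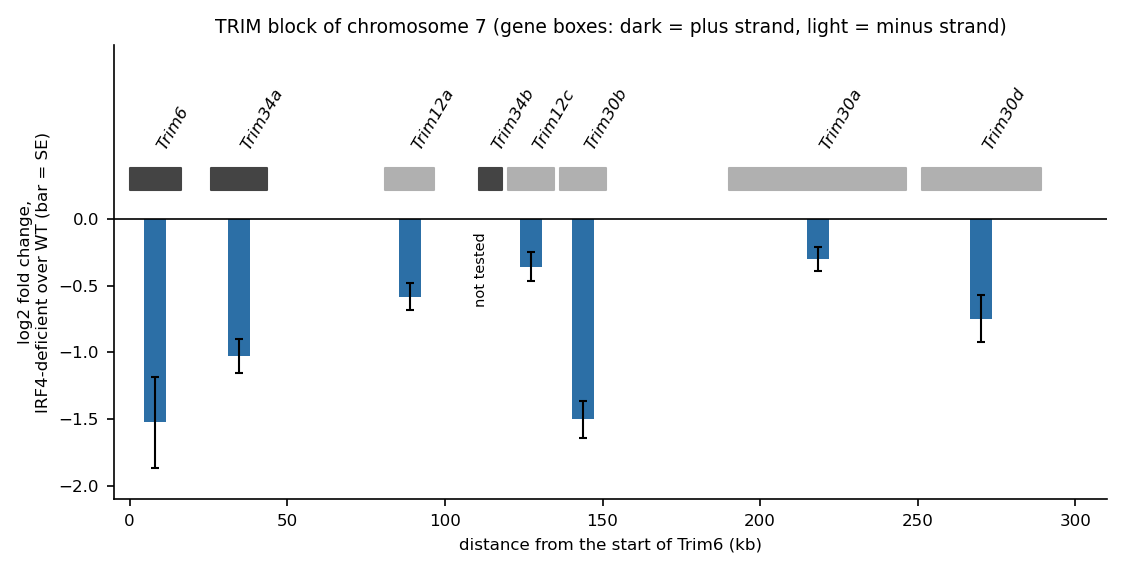
Genes of the chromosome 7 cluster by distance from the start of Trim6 (kb), drawn as boxes to scale (dark, plus strand; light, minus strand), with the log2 fold change of each tested gene as a blue bar below its box (whisker = SE). All 7 tested genes lie below 0, Trim6 and Trim30b near -1.5 and Trim30a at -0.30. Trim34b had too few counts to be tested.

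The promoter windows of several lower genes hold the letters of the interferon-stimulated response element (ISRE), the type of sequence that IRF proteins and the interferon-activated STAT complex bind. A match of letters is a description and not a measured binding site. The windows shown run from 250 bases before to 50 after the gene start and come from RefSeq on GRCm38. They are given for the members that were called lower and whose window held the searched letters, GAAA and again GAAA with any 2 bases between them, on either strand. Capitals mark the match, which reads as TTTC and TTTC where it lies on the opposite strand. For Trim34a (chr7:104244207-104244506, plus strand) and Trim21 (chr7:102565433-102565732, minus strand) the whole window is shown, and in Trim21 the capitals are 2 matches that share 4 letters. For Trim12a (chr7:104315446-104315515), Trim12c (chr7:104353339-104353408), Trim30a (chr7:104465190-104465259) and Trim30d (chr7:104507851-104507920), all on the minus strand, 30 bases on each side of the match are shown.
Trim34a: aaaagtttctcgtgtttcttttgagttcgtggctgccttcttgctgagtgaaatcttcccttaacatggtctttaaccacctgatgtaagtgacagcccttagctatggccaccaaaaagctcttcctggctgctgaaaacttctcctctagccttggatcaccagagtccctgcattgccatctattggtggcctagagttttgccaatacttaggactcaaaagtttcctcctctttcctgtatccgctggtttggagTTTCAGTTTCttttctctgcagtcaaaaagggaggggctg
Trim21: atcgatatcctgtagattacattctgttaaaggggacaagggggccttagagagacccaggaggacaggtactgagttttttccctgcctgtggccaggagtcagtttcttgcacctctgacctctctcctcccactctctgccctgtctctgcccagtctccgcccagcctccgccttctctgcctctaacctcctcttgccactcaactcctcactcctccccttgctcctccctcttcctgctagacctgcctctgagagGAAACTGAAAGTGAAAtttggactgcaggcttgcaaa
Trim12a: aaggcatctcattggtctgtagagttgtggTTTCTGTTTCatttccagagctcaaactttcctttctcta
Trim12c: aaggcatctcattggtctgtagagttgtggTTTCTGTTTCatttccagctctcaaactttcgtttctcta
Trim30a: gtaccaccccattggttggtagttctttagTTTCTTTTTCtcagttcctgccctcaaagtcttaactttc
Trim30d: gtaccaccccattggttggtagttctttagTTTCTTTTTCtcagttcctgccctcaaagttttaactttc
A promoter window was given for 36 of the 48 members. Of the 11 lower members 9 had a window, and 6 of these held the ISRE letters, namely those printed. Trim30a has a window at a second start too, 19.1 kb downstream, which also held them. Among the 22 members that were tested and not called and had a window, 2 held them, Trim2 and Trim26. The match of Trim2 was in a window that starts 94.0 kb downstream of its outermost GENCODE start. The window of Trim26 held 2 matches that overlap, as the window of Trim21 did. Of all 27025 genes with a window 3.99% held the letters, and of the tested genes with a window 3.89%. The 6 lower members with the letters are not 6 separate cases beside these shares. The windows of Trim12a and Trim12c are near copies, as are those of Trim30a and Trim30d. Trim6, Trim39 and Trim30b were lower without the letters in their windows, and the window of Trim30b starts 11.2 kb inside the gene as GENCODE draws it, so the sequence at that outer start was not searched.

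The printed stretches also show how alike the neighbours are. The Trim12a and Trim12c windows were identical at 95% of 260 aligned bases, and those of Trim30a and Trim30d at 93.6% of 295, while every other pair of cluster windows reached at most 67.4%. The ETS-IRF composite letters (GGAA and GAAA with any 2 bases between them), which pair a PU.1-type site with an IRF site, were found in the windows of Trim12a and Trim12c among the lower members, where they share 4 bases with the ISRE letters. They were also found in Trim25, Trim44, Trim15 and Trim34b, none of which was called, and in 3.16% of all genes with a window. The AP-1-IRF composite letters (GAAA followed by TGA, any base and TCA) were found in no member's window and in 0.141% of all genes.

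Trim30b had the smallest p of the family. It stood at 27.6, 30.5 and 34.2 CPM in the IRF4-deficient libraries, against 101.9, 77.7 and 82.0 CPM in WT. All IRF4-deficient values lay below all WT values, as was so for each of the 11 lower members and for 18.1% of all tested genes. Trim30b was 2.83-fold lower (log2 fold change -1.50, SE 0.14, edgeR adjusted p = 2.23e-07).

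Its neighbour Trim30a, which in mouse restrains Toll-like receptor signalling to NF-κB through the adaptors TAB2 and TAB3, was the most abundant of the cluster and fell least. It read 177.2, 202.1 and 182.6 CPM in IRF4-deficient libraries and 240.6, 223.3 and 229.3 CPM in WT (log2 fold change -0.30, SE 0.09, edgeR adjusted p = 0.0204). This call was lost without IRF4-deficient replicate 1 (adjusted p = 0.0902 by edgeR), WT replicate 1 (0.0712) or WT replicate 3 (0.0501). Trim30d fell 1.68-fold, with 36.4, 58.2 and 67.1 CPM in IRF4-deficient libraries against 93.6, 91.3 and 85.8 CPM in WT (edgeR adjusted p = 0.00602). Its IRF4-deficient libraries were far more spread than its WT libraries, with an SD of 15.8 CPM, against 4.03 CPM in WT.

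Ratios of counts within a library need no scaling between libraries, and 5 were computed, chosen after their values were seen. The number of Trim30b counts per Trim30a count was 0.156, 0.151 and 0.187 in IRF4-deficient libraries and 0.424, 0.348 and 0.357 in WT. The ratio was lower in every IRF4-deficient library, by 1.19 on average on the log2 scale. An exact two-sided permutation test over the libraries gave p = 0.1, the smallest that 3 against 3 can give (0.125 after Benjamini-Hochberg adjustment over the 5 ratios). Trim30d and Trim34a per Trim30a were also lower in every IRF4-deficient library, by 0.48 and 0.72 on the log2 scale, with the same p. The ratio of Trim12a to Trim12c overlapped between the groups (exact permutation p = 0.2).

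Trim34a, the mouse counterpart of the human restriction factor TRIM34, had 48, 55.6 and 42.6 CPM in IRF4-deficient libraries, against 87.7, 107.1 and 102.7 CPM in WT. That is a 2.04-fold lower level (log2 fold change -1.03, SE 0.13, edgeR adjusted p = 8.9e-06). Its near copy Trim34b had 12 counts in the IRF4-deficient libraries together and 20 in WT, and was not tested. Trim34a shares 59.7% of its transcript stretches of 50 bases with other genes, Trim34b above all, so how reads were divided between them is uncertain.

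Trim12a and Trim12c are rodent relatives of primate TRIM5, which restricts retroviral capsids. Trim12a was even among the IRF4-deficient libraries, at 83.7, 84.2 and 84.3 CPM, against 127.9, 131.3 and 118.7 CPM in WT, and fell 1.5-fold (edgeR adjusted p = 0.000298). Trim12c read 87.3, 83.1 and 98.5 CPM in IRF4-deficient libraries, against 105.1, 119.4 and 119.9 CPM in WT, and fell 1.28-fold (edgeR adjusted p = 0.0252). The call of Trim12c was lost without IRF4-deficient replicates 1 or 2 or WT replicates 2 or 3 (edgeR adjusted p = 0.0771, 0.105, 0.112 and 0.0947). Of its 50-base transcript stretches 33.7% also occur in other genes, mostly in Trim5 and Trim12a, against 10.5% for Trim12a, 7.49% for Trim30d, 5.98% for Trim30a and 1.48% for Trim30b.

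At the other end of the cluster, Trim6 is known in human cells for making unanchored ubiquitin chains that activate the kinase IKKε. It was scarce, at 2.67, 4.57 and 5.12 CPM in IRF4-deficient libraries, against 8.44, 17.2 and 9.42 CPM in WT. Its fold change was the largest decrease of the family (log2 fold change -1.53, SE 0.34, edgeR adjusted p = 0.00304). WT replicate 2 carried much of it, and without that library the log2 fold change was -1.12 and the call was lost (edgeR adjusted p = 0.0604).

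Outside the cluster, Trim21 and Trim14 were the interferon-linked members called lower. Trim21, the cytosolic antibody receptor that sends antibody-coated viruses to the proteasome, stood at 61.1, 73.7 and 63.0 CPM in IRF4-deficient libraries and 86.2, 97.3 and 105.3 CPM in WT. It fell 1.46-fold (log2 fold change -0.55, SE 0.12, edgeR adjusted p = 0.00259). Trim14, which lacks a RING finger and serves as an adaptor of MAVS signalling at mitochondria, stood at 29.5, 34.0 and 37.2 CPM in IRF4-deficient libraries and 55.0, 50.001 and 48.9 CPM in WT. It fell 1.53-fold (edgeR adjusted p = 0.00358). Trim14 shares 1650 bases of exon with Nans, a sialic acid synthase gene on the opposite strand, which was not called (log2 fold change -0.14, SE 0.25).

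**Figure D3:**
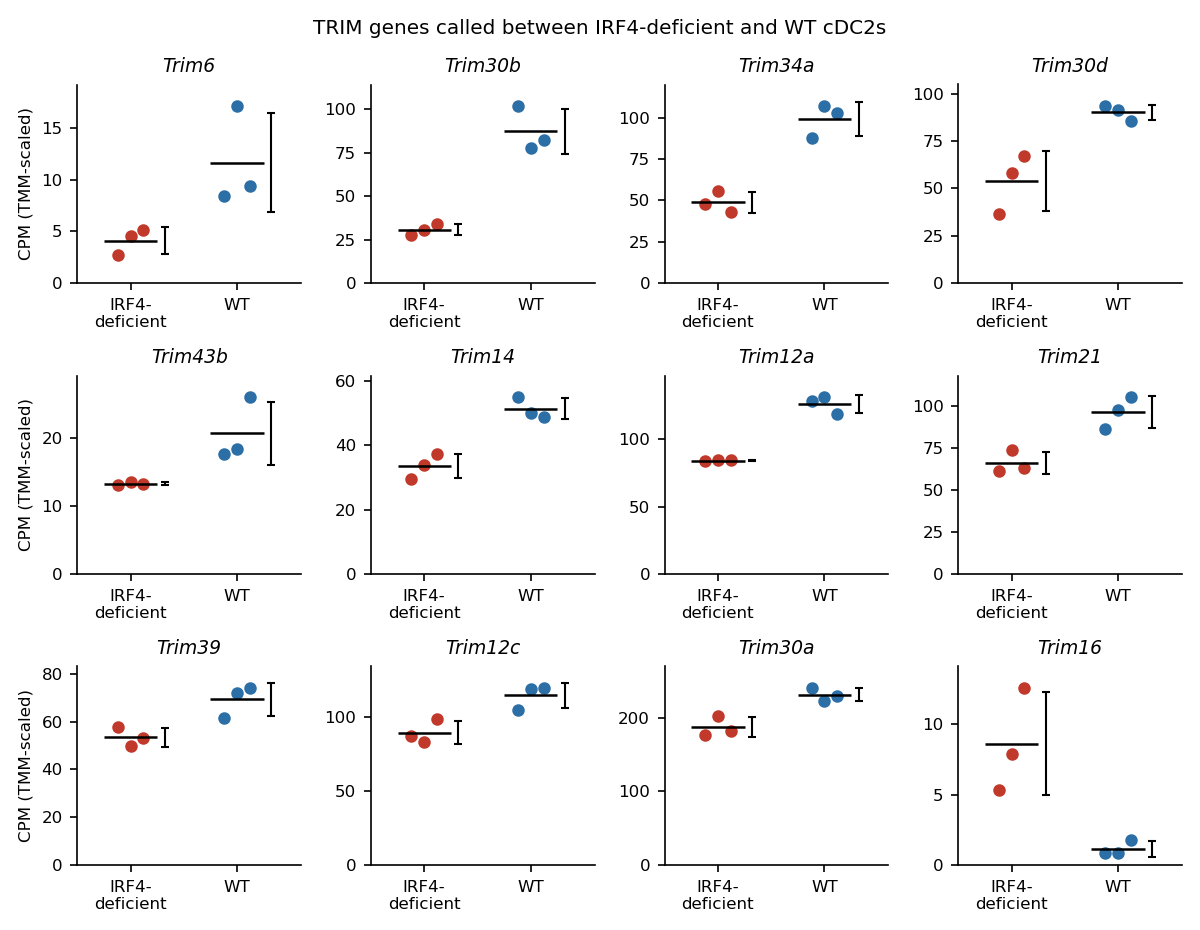
TMM-scaled CPM of the 12 called TRIM genes in each library, IRF4-deficient (red) left of WT (blue), with the group mean as a line and the SD as a bar (n = 3 each), ordered by fold change. The groups do not overlap in any panel, and Trim16 is the one gene that is higher in IRF4-deficient libraries.

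Of the antiviral regulators, 4 were not called, and they include some of the best known. Trim25, the ligase that ubiquitinates the RNA sensor RIG-I, was the second most abundant member by CPM, at 241.1, 294.9 and 229.3 CPM in IRF4-deficient libraries and 249.5, 248.6 and 256.2 CPM in WT. Its log2 fold change was 0.02 with an SE of 0.10. RIG-I itself (Ddx58) stood at 142.0 ± 14.6 CPM in IRF4-deficient cells, against 141.7 ± 14.7 CPM in WT (SD, n = 3 each), and was not called either. Trim65, known to activate the RNA sensor MDA5, averaged 56.1 ± 14.4 CPM in IRF4-deficient cells, against 56.6 ± 9.53 CPM in WT. The log2 fold changes of the other two, Trim26 and the DNA sensing regulator Trim56, were -0.08 (SE 0.10) and -0.05 (SE 0.17). The groups overlapped for all 4.

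Trim21 was also set against Trim25 within each library. There were 0.253, 0.250 and 0.275 Trim21 counts per Trim25 count in IRF4-deficient libraries, against 0.345, 0.391 and 0.411 in WT. The values do not overlap, at the smallest p of the exact permutation test (two-sided p = 0.1, and 0.125 after Benjamini-Hochberg adjustment over the 5 ratios). This ratio too was chosen after its values were seen, so it is not independent evidence.

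Trim16 was the only member called higher. It lacks a RING finger and is known in human cells for a part, with galectin-3, in the autophagy of damaged lysosomes. Its counts were 58, 64 and 113 in IRF4-deficient libraries, against 6, 9 and 13 in WT, which is 5.34, 7.91 and 12.6 CPM in IRF4-deficient libraries, against 0.830, 0.818 and 1.78 CPM in WT. The fitted difference was 7.60-fold (log2 fold change 2.93, SE 0.46, edgeR adjusted p = 0.000111). Trim16 shares 237 bases of exon with its neighbour Fbxw10 on the same strand, which was not called and had the opposite sign (log2 fold change -1.12, SE 0.45). Galectin-3 (Lgals3) was also called higher, at 63.0 ± 8.92 CPM in IRF4-deficient libraries, against 35.2 ± 8.56 CPM in WT (SD, n = 3 each; edgeR adjusted p = 0.00123).

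Within the IRF4-deficient group, Trim16 and the summed red pulp macrophage markers were both highest in replicate 3 and lowest in replicate 1, an order that several other called members had as well, Trim30d and Trim6 among them. The marker sums were 1829, 2600 and 3346 CPM in IRF4-deficient replicates 1, 2 and 3. The part of red pulp macrophage RNA in the result was not tested beyond 1 fit that took an index of these markers as a covariate. There the log2 fold change of Trim16 was 1.86 (SE 0.82), against 2.93 (SE 0.46) without the index, and its call was lost (edgeR adjusted p = 0.239). That fit called 690 genes in all, against 2429 without the index, which itself differed between the groups. It kept Trim30b, Trim34a, Trim6, Trim14 and Trim30d as lower. The calls of Trim12a, Trim12c, Trim21 and Trim30a were lost with log2 fold changes at least as large as without the index (-0.65, -0.47, -0.59 and -0.38) and larger SEs (0.21, 0.23, 0.26 and 0.19). Those of Trim39 and Trim43b were lost with smaller ones (-0.19 and -0.43). The log2 fold change of Trim30d was -1.72 and that of Trim6 -2.84 in that fit.

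**Figure D4:**
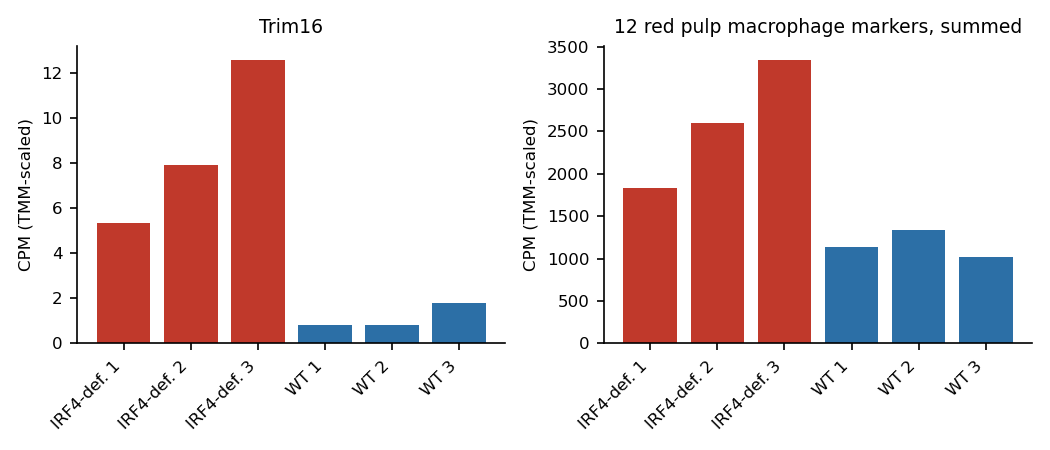
TMM-scaled CPM in each library of Trim16 (left) and of the 12 red pulp macrophage markers summed (right), IRF4-deficient in red and WT in blue. In both panels the IRF4-deficient libraries are above the WT libraries and IRF4-deficient replicate 3 is the highest, at 12.6 CPM for Trim16 and 3346 CPM for the marker sum.

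The lower calls outside the interferon and antiviral group did not withstand leaving out single libraries, nor did those of Trim12c, Trim30a and Trim6 inside it. Trim39, known in human cells as a ligase that binds the apoptosis modulator MOAP1, had 57.6, 49.7 and 53.1 CPM in IRF4-deficient libraries and 61.5, 72.1 and 74.2 CPM in WT (log2 fold change -0.37, SE 0.13, edgeR adjusted p = 0.0415). Trim43b, of a mouse subfamily known from early embryos, had 13.1, 13.6 and 13.3 CPM in IRF4-deficient libraries, against 17.7, 18.4 and 26.1 CPM in WT (log2 fold change -0.64, SE 0.21, edgeR adjusted p = 0.0372). The call of Trim39 was lost without IRF4-deficient replicates 2 or 3 or WT replicates 2 or 3 (edgeR adjusted p = 0.134, 0.0575, 0.152 and 0.155). That of Trim43b was lost when any library but WT replicate 1 was left out (0.0539 to 0.228). Trim43b shares 47.7% of its 50-base transcript stretches with other genes, Trim43a and Trim43c among them, so how reads were divided between them is uncertain. Trim43a and Trim43c, which share 45.9% and 58.6% of their 50-base stretches with other genes, averaged under 5 CPM and were not called.

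The chromatin members were not called. Trim28 (KAP1), the corepressor that KRAB zinc finger proteins bring to DNA, stood at 125.8, 106.7 and 123.4 CPM in IRF4-deficient libraries and 92.5, 93.3 and 104.8 CPM in WT. The groups did not overlap, yet the difference missed the threshold (log2 fold change 0.29, SE 0.11, edgeR adjusted p = 0.062), and it passed without IRF4-deficient replicate 2 (0.0343). Groups without overlap and higher in IRF4-deficient cells were seen in 3 tested members (Trim16, Trim28 and Trim44) and in 17.5% of all tested genes. Trim33, which regulates SMAD signalling, averaged 174.8 ± 16.7 CPM in IRF4-deficient cells, against 175.4 ± 24.3 CPM in WT (SD, n = 3 each). Trim24, a nuclear receptor cofactor, averaged 82.9 ± 5.72 CPM in IRF4-deficient cells, against 72.0 ± 8.10 CPM in WT. Trim27 had a log2 fold change of 0.04 (SE 0.15).

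Trim44, which lacks a RING finger and carries a zinc finger of the kind found in ubiquitin proteases, was the most abundant member by CPM. It read 294.0, 337.6 and 275.2 CPM in IRF4-deficient libraries and 253.1, 259.6 and 273.7 CPM in WT. It was not called (log2 fold change 0.21, SE 0.09, edgeR adjusted p = 0.124), but passed without IRF4-deficient replicate 3 (0.0389).

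Of the remaining branches 0 of 9 tested members were called: the NHL-repeat proteins Trim2, Trim3 and Trim32, the microtubule-binding Trim36, the membrane-anchored Trim13 and Trim59, and Trim23, Trim37 and Trim45, whose C-terminal ends carry an ARF, a MATH and a filamin domain. Their log2 fold changes ran from -0.43 for Trim32 to 0.30 for Trim2, each within 2 SE of 0. The levels of Trim36 were 74.7, 67.2 and 54.2 CPM in IRF4-deficient libraries and 67.9, 68.7 and 77.0 CPM in WT. Trim37, a peroxisomal ligase, had a log2 fold change of -0.05 (SE 0.13). Of all tested genes 20.4% were called either way, so 0 calls among 9 genes do not set the branches above apart. A mixed group of 11 other tested members held 1 call, Trim39, again too small a count to set it apart from that share. Among them Trim8, a regulator of NF-κB and cytokine signalling, had a log2 fold change of 0.09 (SE 0.15). Trim11 averaged 49.5 ± 10.5 CPM in IRF4-deficient libraries, against 59.8 ± 3.55 CPM in WT (SD, n = 3 each). It was not called (log2 fold change -0.27, SE 0.15), but was lower without IRF4-deficient replicate 3 (edgeR adjusted p = 0.0181). The others of these 11 were Trim7, Trim15, Trim17, Trim35, Trim41, Trim47, Trim62 and Trim68, with log2 fold changes from -0.65 (Trim62, SE 0.35) to 0.36 (Trim47, SE 0.77). Trim68 averaged 9.37 ± 1.95 CPM in IRF4-deficient libraries, against 14.2 ± 3.41 CPM in WT (SD, n = 3 each), and its groups overlapped. Trim42, for which no role was listed, had a log2 fold change of 0.87 (SE 0.51) at under 5 CPM.

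Scarce members were tested less often. Of the 18 with a mean under 10 CPM, 13 were tested and 2 called (Trim6 and Trim16). All 30 with at least 10 CPM were tested, and 10 were called, all lower. Of all tested genes 20.4% were called either way, a share that was not split by level. The part of depth in these counts was not tested. The 5 members that were not tested were Trim10, an erythroid gene with 51 counts over the 6 libraries, Trim46 with 36, Trim34b with 32, Trim75 with 29 and Trim66 with 22. Of the 29 counts of Trim75, 22 were in IRF4-deficient replicate 3, and of the 51 of Trim10, 23 were in WT replicate 1. No difference was tested for these 5 genes.

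Compared per length (counts per kilobase of exon, scaled to the same total in every library), Trim30a, Trim44 and Trim25 were the leading members. Trim30a averaged 226.7 in IRF4-deficient libraries, against 274.9 in WT, on that scale. Trim44 stood at 266.7 in IRF4-deficient libraries, against 227.3 in WT, and Trim25 at 220.8, against 213.8 in WT. Trim34a, Trim12c, Trim28, Trim21, Trim26, Trim30d and Trim12a filled the next places. So 6 of the 10 members with the highest level per length over all libraries were among those called lower, all but Trim21 from the chromosome 7 cluster. Of all tested genes 10.5% were called lower, and the share among genes of similar level was not computed. In IRF4-deficient cells the order began Trim44, Trim30a, Trim25, Trim28, and in WT cells Trim30a, Trim44, Trim25, Trim34a. Between Trim30a and Trim25 in IRF4-deficient cells the gap was smaller than the SDs (18.6 and 33.7).

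**Figure D5:**
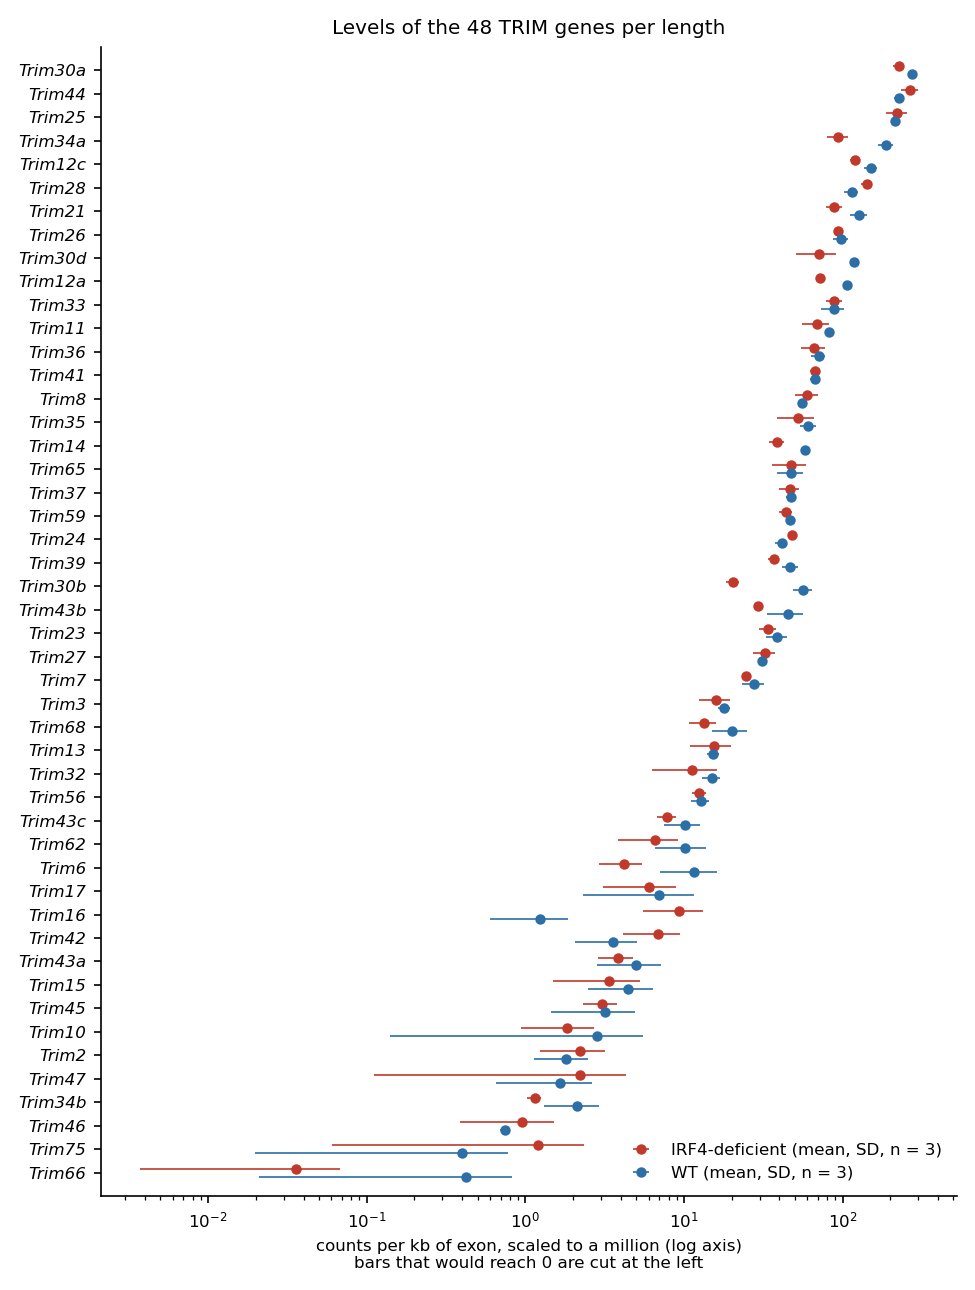
Level per length of all 48 TRIM genes (horizontal log axis, counts per kilobase of exon, scaled to the same total in every library), as mean and SD of 3 IRF4-deficient (red, upper) and 3 WT libraries (blue, lower), ordered by the mean over all libraries. Error bars that would reach 0 stop short at the left. The levels span more than 3 orders on the log axis, from Trim66 at the bottom to Trim30a at the top. The groups part most clearly at Trim30b, Trim34a and Trim16.

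TRIM relatives that go by other names were counted next, 5 of the 6 being tested. Mefv (pyrin, TRIM20), an inflammasome sensor, had 80.3, 96.2 and 85.8 CPM in IRF4-deficient libraries against 222.0, 284.5 and 287.8 CPM in WT. It fell, and the groups did not overlap (log2 fold change -1.60, SE 0.11, edgeR adjusted p = 4.97e-09). Pml (TRIM19), which builds nuclear bodies, averaged 51.6 ± 6.01 CPM in IRF4-deficient cells, against 44.3 ± 3.67 CPM in WT, and was not called, nor were Mid1, Mid2 and Rnf135. Mid2 lay at the threshold (edgeR adjusted p = 0.051).

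Genes of the pathways in which TRIM proteins act were counted list by list, against the same 9.87% of all genes called higher and 10.5% called lower. Interferon receptor signalling had 9 lower and 2 higher calls among 17 tested genes, around a median log2 fold change of -0.31. Usp18, which limits interferon receptor signalling and removes ISG15, averaged 33.9 ± 4.81 CPM in IRF4-deficient cells, against 110.1 ± 10.2 CPM in WT (SD, n = 3 each; edgeR adjusted p = 2.05e-08). The signal transducers Stat2 and Tyk2 fell (log2 fold changes -0.74 and -0.76, SE 0.08 and 0.13). The interferon gamma receptor gene Ifngr1 and the phosphatase gene Ptpn6 rose (0.36, SE 0.08, and 0.34, SE 0.07).

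Ubiquitin and ISG15 conjugation had 8 lower and 1 higher calls among 29 tested genes, around a median log2 fold change of -0.04. Usp18 is in this list and in the interferon receptor list, and was counted in both. Genes of each step of ISG15 attachment were among the lower ones, from Isg15 itself (log2 fold change -1.39, SE 0.24) through its activating enzyme Uba7 (-0.74, SE 0.09) and conjugating enzyme Ube2l6 (-1.42, SE 0.25) to the ligase Herc6 (-1.05, SE 0.09). The ubiquitin-activating enzyme Uba1 (log2 fold change 0.12), the Lys63 chain enzyme Ube2n (-0.19) and the ubiquitin gene Ubb (0.04) were not called. The lower calls also held the ubiquitin-editing enzyme Tnfaip3 (A20), at 115.8 ± 14.01 CPM in IRF4-deficient libraries, against 216.2 ± 24.4 CPM in WT.

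RNA and DNA sensing genes split evenly, with 4 higher and 4 lower calls among 24 tested genes and a median of -0.06 on the log2 scale. Nfkb1 (0.58, SE 0.08) and Ticam2 (0.59, SE 0.11) led the higher ones, and Ifih1, which encodes MDA5 (-0.46, SE 0.09), and Tank (-0.49, SE 0.10) the lower ones. Of 23 genes of the TRIM28 silencing complex 2 were called higher (Dnmt1 and Cbx1) and 1 lower (Rbbp7), and the methyltransferase Setdb1 was not called (log2 fold change -0.10, SE 0.11). Of 23 autophagy partners 3 were called higher (Lgals3, Gabarap and Optn) and 0 lower, with adjusted p-values of 0.00123, 0.0475 and 0.0497 by edgeR. With limma-voom 1 of them was called higher. In the fit with the red pulp covariate 0 were, and the lower calls numbered 4 in the interferon receptor list, 4 in the ubiquitin list and 0 in the sensing list.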

How the data were processed

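Per the labels, total RNA of splenic cDC2s was sequenced as Illumina libraries. The deposited file was 1 table of raw counts, 1 row for each gene symbol and 1 column for each of the 6 samples (0 columns unused). STAR, HTSeq and DESeq2, and the build mm10, are named per the submitters' processing notes. Versions, annotation and strand setting: not given in the sources used here. WT columns were matched to titles through the labels' source names.

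Genes were kept by filterByExpr (11934 tested), scaled by TMM and tested with edgeR 4.0.16 (glmQLFit and glmQLFTest, robust, R 4.3.3) at an adjusted p under 0.05. SEs derive from the F statistic. The common biological coefficient of variation was 0.156. Replicates differed beyond counting noise (chi-square per degree of freedom 7.66 to 15.9), so each library counted once. The steps were tested on simulated data in which every gene had the same biological coefficient of variation. Of 67, 67 and 65 genes changed 1.5-fold, 2-fold and 4-fold, 25.4%, 86.6% and 100% were recovered among 11934 tested genes. Far fewer genes changed there than the 2429 called in the data, so these shares need not hold for the data.

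Positions, exon lengths and 50-base transcript stretches were read from GENCODE M21 (GRCm38, the same assembly as mm10), which matched all 48 members, and promoter windows from RefSeq (GRCm38.p6). Windows were aligned with Biopython 1.88. Named are all called members, the 10 highest by CPM and by level per length, the untested members, members of a group by their fold change, Irf4, and in each partner list the called genes of smallest p and any of at least 50 CPM; Mid1, Mid2, Rnf135, Pml, Ube2n, Ubb, Isg15, Ube2l6, Optn and overlapping genes were named after their values were seen. Counts over lists include genes that are not reported here singly. The members, groups and lists were chosen with earlier results of these data known.

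Alternatives were DESeq2 1.42.0, DESeq2 and upper-quartile size factors, no filter, 5 CPM in 3 libraries, limma-voom (limma 3.58.1), the replicate number as a block, robust shrinkage turned off, a red pulp marker index as a covariate, and leaving out each library.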

Additional observations from a re-analysis of the deposited data

How the results depend on the processing

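The counts of 11 TRIM genes lower and 1 higher stood at 10 or 11 lower and 1 higher under both other scalings, both other filters, DESeq2, limma-voom and no robust shrinkage, and at 9 lower and 1 higher with the replicate block. They were 5 and 0 in the fit with the red pulp covariate, where the chromosome 7 cluster had 4 lower, and 690 genes were called in all instead of 2429; the share of the index in these changes was not tested. In the fits that left out 1 library, 7 to 10 TRIM genes were lower (7 without WT replicate 2 or WT replicate 3) and 1 to 2 higher, 5 to 7 cluster genes were lower, and 1779 to 2431 genes were called. No called TRIM gene changed sign among 636 comparisons of 43 genes with an alternative: 27 lost a call and 3 gained one. The replicate number was not shown to pair libraries (correlations of deviations -0.01, 0.05 and -0.01), and the block lost the calls of Trim39 (adjusted p = 0.0689) and Trim43b (0.0554), with 2267 genes called in all. With limma-voom Trim43b was lost as well (0.0509).

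For the partner lists, the red pulp covariate gave 0 sensing genes lower, 0 and 4 interferon receptor genes higher and lower, 0 and 4 ubiquitin genes higher and lower, 1 and 0 TRIM28 complex genes higher and lower, and 0 autophagy genes higher. The relatives under other names held 1 higher call with upper-quartile factors, DESeq2 and no robust shrinkage. With limma-voom and with the replicate block 1 TRIM28 complex gene was higher, and 1 autophagy gene was higher and 1 lower; without robust shrinkage 1 autophagy gene was higher. Leaving out 1 library gave 2 to 4 sensing genes lower, 0 to 1 ubiquitin genes higher, 1 to 3 TRIM28 complex genes higher, 0 to 1 relatives higher, and 1 to 2 autophagy genes higher and 0 to 1 lower. Among counts, precision is lowest for members under 10 CPM. Changes near 1.5-fold were often missed in simulated data, which held far fewer changed genes than were called here.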
